A study of Mus musculus with 4 samples.

Results

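Histone-modifying and chromatin-remodelling genes were described in 4 RNA libraries of mouse macrophages differentiated in culture from bone marrow. The genes were taken by symbol, as the lysine demethylases (Kdm), histone deacetylases (Hdac), sirtuins (Sirt), lysine acetyltransferases (Kat), bromodomain proteins (Brd), CHD remodellers (Chd), SMARC subunits (Smarc), Ezh1 and Ezh2, the SET-domain genes named Setd, and the Tet dioxygenases. The patterns matched 81 of the 23284 genes measured. Of these, 73 averaged at least 1 FPKM (fragments per kilobase of transcript, scaled between libraries) over the 4 libraries and entered the counts below. The other 8 were Kdm4d, Hdac9, Hdac11, Setd4, Chd5, Smarca1, Smarca5-ps and Tet1. Among these 8, Hdac9, a class IIa deacetylase, was listed at 1.15 FPKM in Spic-/- with LPS, 0.760 FPKM in control with LPS, 0.842 FPKM in Spic-/- without LPS and 0.712 FPKM in control without LPS. Setd4 reached 0.989 FPKM and Hdac11 reached 0.672 FPKM, both in control without LPS.

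There was 1 library for each of 4 groups, namely Spic-/- with LPS, control with LPS, Spic-/- without LPS and control without LPS, where control is Spic+/+. LPS, the endotoxin of Gram-negative bacteria, was given at 100 ng/ml for 4 h. Hemin, the oxidised form of heme, had been added for 18 h beforehand in every group, at 40 µM according to the protocol text and in mM according to the descriptions of single samples. Sample titles describe a conditional knockout, and neither an allele nor a Cre driver is stated in the labels.

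Histone demethylases and deacetylases take methyl and acetyl groups off histone tails, methyltransferases and acetyltransferases put them on, and bromodomain proteins bind acetylated lysine. CHD and SMARC proteins use the energy of ATP to move or evict nucleosomes, alone or in complexes such as BAF, and Tet enzymes oxidise methylated cytosine in DNA. In macrophages this machinery is known for opening inflammatory genes to transcription after endotoxin and for closing them again.

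Spic encodes Spi-C, a transcription factor of the Ets family whose RNA is induced by heme. It was at 80.8 FPKM in Spic-/- with LPS, against 406 FPKM in control with LPS, and at 14.98 FPKM in Spic-/- without LPS, against 53.1 FPKM in control without LPS. The knockout libraries therefore held 19.9% of the control level with LPS and 28.2% without it, and both were lower than their control. All 10 macrophage markers were detected, with summed levels between 7180 and 11600 FPKM. Their median log2 ratio of (FPKM + 1), Spic-/- over control, was 0.32 with LPS and 0.27 without. The sum was nevertheless lower in Spic-/-, where Lyz2 was at 3419 FPKM against 5620 FPKM with LPS and at 4014 FPKM against 6340 FPKM without. The summed level of 12 stromal and smooth muscle markers was lower in the knockout, at 487 FPKM in Spic-/- with LPS, against 853 FPKM in control with LPS, and 436 FPKM in Spic-/- without LPS, against 877 FPKM in control without LPS; 11 of the 12 averaged at least 1 FPKM. Summed markers of B cells, T cells, endothelium, erythroid cells, mast cells and dendritic cells stayed at or under 1.76 FPKM for each type in every library. The number of fragments behind 1 FPKM was estimated from the spacing of low values. With control without LPS as 100%, it was 51.6% in Spic-/- with LPS, 67.8% in control with LPS and 82.8% in Spic-/- without LPS. The knockout with LPS thus had the fewest fragments per FPKM. Summed FPKM went the other way, from 819232 in Spic-/- with LPS to 500123 in control without LPS, so these shares are not total sequencing depth. With 1 library per group no comparison had a replicate or a test. In bulk RNA, fewer cells of a type and less RNA per cell cannot be told apart.

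The 6 members at least 2-fold apart with LPS in both genotypes were Kdm6b, Tet2, Kdm4a and Setd8 on the higher side and Hdac5 and Setd7 on the lower side, beside 9.41% of all genes tested that were higher and 5.64% that were lower in both, and 5 of the 6 had an entry in the RefSeq promoter table (GRCm38.p6). The 250 bases before each listed start were searched on both strands for an NF-kB-like motif (GGGA and CC with any 4 bases between), the interferon response core (GAAA, any 2 bases, GAAA), the AP-1 site TGANTCA, the PU.1-type Ets core GAGGAA and the SP1 box GGGCGG. Promoters are shown here for 2 genes of each direction, on the gene's strand from 5′ to 3′. Only bases outside the gene as annotated are printed, so the Kdm4a window is cut to 203 bases. Capitals mark matches on either strand. The stretches shown are Kdm4a at chr4:118180091-118180293 (minus strand), Setd8 at chr5:124439680-124439929 (plus strand, the first of 3 listed starts), Hdac5 at chr11:102230173-102230422 (minus strand) and Setd7 at chr3:51560824-51561073 (minus strand).
Kdm4a: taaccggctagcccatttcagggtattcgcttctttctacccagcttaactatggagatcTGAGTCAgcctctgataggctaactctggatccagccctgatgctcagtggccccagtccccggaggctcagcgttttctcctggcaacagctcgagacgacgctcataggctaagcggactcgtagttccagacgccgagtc
Setd8: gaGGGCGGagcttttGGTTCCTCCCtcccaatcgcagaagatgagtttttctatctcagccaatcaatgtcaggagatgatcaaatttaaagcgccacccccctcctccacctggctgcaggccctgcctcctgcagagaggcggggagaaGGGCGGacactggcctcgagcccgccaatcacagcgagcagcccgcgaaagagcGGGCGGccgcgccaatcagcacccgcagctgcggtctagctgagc
Hdac5: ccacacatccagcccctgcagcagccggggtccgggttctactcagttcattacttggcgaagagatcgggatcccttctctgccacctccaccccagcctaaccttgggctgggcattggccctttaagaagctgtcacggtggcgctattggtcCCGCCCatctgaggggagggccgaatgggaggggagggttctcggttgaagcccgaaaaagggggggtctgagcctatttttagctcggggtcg
Setd7: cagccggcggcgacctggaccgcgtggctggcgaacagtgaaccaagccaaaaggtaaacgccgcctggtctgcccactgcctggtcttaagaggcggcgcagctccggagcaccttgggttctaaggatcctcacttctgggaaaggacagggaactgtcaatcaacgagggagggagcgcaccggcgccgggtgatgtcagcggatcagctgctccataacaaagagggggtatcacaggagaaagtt

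The 250-base Kdm4a window held 1 AP-1 match, starting at position -190 from the listed start, and no other match. The Setd8 window held 3 SP1 boxes and 1 NF-kB-like match whose bases overlap 1 GAGGAA match. Hdac5 had 1 SP1 box, Setd7 had none of the 5 motifs, and the Tet2 window, which lies inside the annotated gene and is not shown, had 1 SP1 box. For comparison, among 32851 promoter windows of this length 17.6% held the NF-kB-like letters, 2.98% the interferon response core, 6.75% the AP-1 site, 23.3% the Ets core and 32.7% the SP1 box. No motif searched was found in all 5 genes, SP1 boxes stood before both higher and lower genes, and a match describes letters only.

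Across the list, LPS was accompanied by higher levels of a few members and lower levels of a few others, while most members stayed within 2-fold. In Spic-/- cells 5 of 73 members were at least 2-fold higher with LPS, where 11.4% of all 10418 genes tested were, and 4 were at least 2-fold lower, where 8.26% of all genes were. In control cells 4 members were at least 2-fold higher, against 10.3% of all genes, and 2 were at least 2-fold lower, against 6.82% of all genes. At 2-fold the shares of members were 6.85% and 5.48% in Spic-/- and 5.48% and 2.74% in control. These lay below those of all genes in both directions, but rest on counts of 2 to 5, and at 1.5-fold the higher shares did not. All ratios are log2 ratios of (FPKM + 1) unless said to be linear, and this scale understates the change of low genes.

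At 1.5-fold, 19 members (26.0%) were higher and 14 (19.2%) lower with LPS in Spic-/-, beside 21.4% and 19.4% of all genes. In control 15 (20.5%) were higher and 9 (12.3%) lower, beside 19.7% and 17.2% of all genes. Past 1.5-fold in both genotypes were 15 members on the higher side, among them Kdm1a, Kdm4a, Kdm4b, Kdm5c, Kdm6b, Tet2, Setd8, Sirt1, Kat5, Brd2, Chd1, Chd4, Smarca5 and Smarce1, and 8 on the lower side, namely Hdac5, Kat2a, Setd7, Sirt3, Sirt4, Sirt5, Chd9 and Smarca2. Over all genes, 18.1% and 14.6% were past 1.5-fold in both genotypes in the higher and the lower direction. The 15 higher members made up 78.9% of the Spic-/- list and 100% of the control list, and the 8 lower ones 57.1% and 88.9%. The median log2 ratio of the 73 members was 0.08 in Spic-/- (95% order-statistic interval -0.10 to 0.34) and 0.06 in control (-0.14 to 0.22), beside 0.03 and 0.02 for all genes.

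The split between higher and lower depended on scaling. Dividing each library by its upper quartile moved the median of all genes to -0.22 in Spic-/- and -0.19 in control, and the members then counted 11 higher and 20 lower at 1.5-fold in Spic-/- and 7 higher and 17 lower in control. Under the same scaling 14.4% of all genes were higher and 29.8% lower in Spic-/-, and 13.6% and 26.4% in control, so the members' excess of lower genes was near that of all genes. At 2-fold that scaling gave 4 higher and 8 lower in Spic-/- and 4 higher and 5 lower in control, beside 8.49% and 13.1% of all genes in Spic-/- and 8.28% and 10.7% in control. Kdm6b, Tet2, Kdm4a, Setd8, Hdac5 and Setd7 were past 2-fold in both genotypes under either scaling. The summed level of the 14 cycling-cell markers listed, 12 of which averaged at least 1 FPKM, was also lower with LPS. It was 258 FPKM in Spic-/- with LPS against 364 FPKM without it, and 229 FPKM in control with LPS against 316 FPKM without it. Most of each sum was Pcna, at 215 and 287 FPKM in Spic-/- and 188 and 246 FPKM in control. The median log2 ratio of the 14 was -0.68 in Spic-/- and -0.51 in control. Mki67 was higher with LPS in both genotypes, and Ccna2 in Spic-/-. The summed level of 6 neutrophil markers, with Mpo at 0 in every library, was 128 FPKM in Spic-/- with LPS against 30.5 FPKM without, and 239 FPKM in control with LPS against 38.8 FPKM without, mostly S100a8. The part of either list in the members' ratios was not tested.

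**Figure D1:**
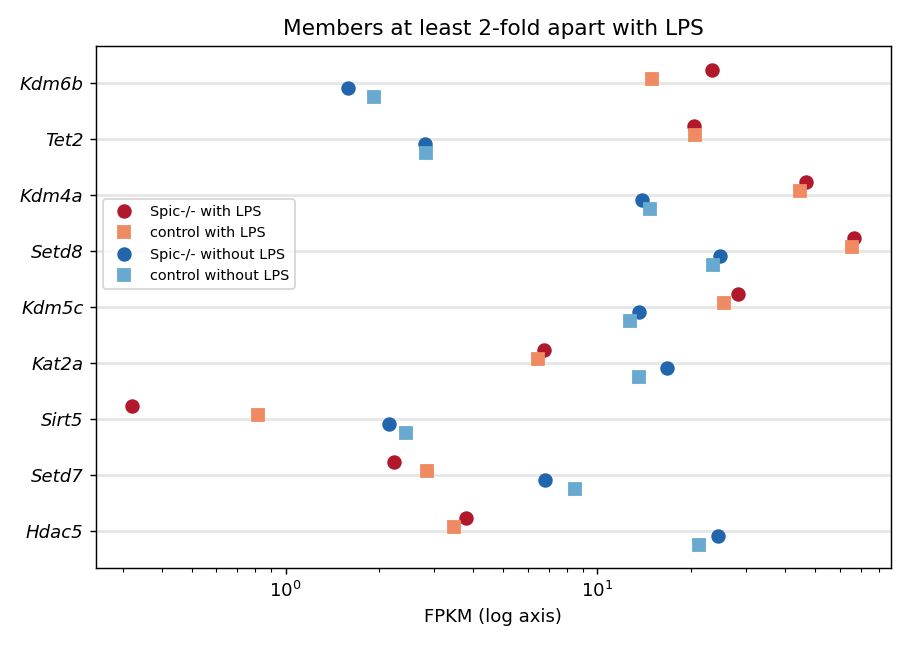
Levels in FPKM (log axis) of the 9 members at least 2-fold apart with LPS in at least 1 genotype, 1 point per library, with circles for Spic-/- and squares for control, red shades with LPS and blue shades without it. For all 9 genes the 2 libraries with LPS lie on one side of the 2 without it, above them for Kdm6b to Kdm5c and below them for Kat2a to Hdac5.

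Among the demethylases, Kdm6b, which removes the repressive methyl mark laid down by Polycomb, had the highest LPS ratio of all members in Spic-/-. It was at 23.4 FPKM in Spic-/- with LPS against 1.58 FPKM without LPS, while it had 15.02 FPKM in control with LPS against 1.93 FPKM without. Both LPS libraries lay above both libraries without LPS. The linear ratio was 14.8-fold in Spic-/- (95% counting interval 12.3 to 17.8) and 7.79-fold in control (6.66 to 9.12), and these intervals, here and below, cover counting error only. On the log2 scale the ratios were 3.24 and 2.45. Kdm6b lies on chromosome 11 at 69398508 to 69420367, where the antisense transcript Kdm6bos overlaps its exons; no source used here states the strand setting of the counting, so reads from partners on opposite strands cannot be told apart.

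Kdm4a, a demethylase of histone H3 lysines tied to heterochromatin, had the highest mean over the 4 libraries of the Kdm genes. Without LPS Kdm2a was higher, at 21.2 FPKM in Spic-/- and 20.4 FPKM in control. Kdm4a was at 46.9 FPKM in Spic-/- with LPS against 13.9 FPKM without, and at 44.8 FPKM in control with LPS against 14.8 FPKM without. The log2 ratios were 1.69 and 1.53, and the genotypes differed less than the LPS states. Kdm5c, the X-linked eraser of a methyl mark of active promoters, had 28.3 FPKM in Spic-/- with LPS against 13.6 FPKM without, and 25.6 FPKM in control with LPS against 12.7 FPKM without. Its log2 ratio of 1.01 in Spic-/- was just past 2-fold and its ratio of 0.95 in control just short of it, and under upper-quartile scaling the Spic-/- ratio was 0.74.

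Kdm5d, the Y-linked partner of Kdm5c, had a different pattern. It had 3.13 FPKM in Spic-/- with LPS against 3.65 FPKM without, and 3.53 FPKM in control with LPS against 4.08 FPKM without. The linear ratios were 0.857 (0.718 to 1.025) and 0.864 (0.745 to 1.002), slightly below 1 in both genotypes with intervals that included 1. All 4 libraries carried Y-linked RNA, with Ddx3y between 17.4 and 26.6 FPKM. Kdm6a, the X-linked paralog of Kdm6b, stayed between 5.44 and 5.74 FPKM in all 4 libraries. The ratio of Kdm6b to Kdm6a was 4.30 in Spic-/- with LPS, 2.71 in control with LPS, 0.290 in Spic-/- without LPS and 0.336 in control without LPS, so that which of the paralogs had the higher FPKM differed with LPS.

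Over the 15 Kdm genes tested, 6 in Spic-/- and 5 in control were at least 1.5-fold higher with LPS, beside 21.4% and 19.7% of all genes. On the lower side were 0 and 1, beside 19.4% and 17.2%. Upper-quartile scaling gave 5 higher and 2 lower in Spic-/-, beside 14.4% and 29.8% of all genes. In control it gave 3 higher and 2 lower, beside 13.6% and 26.4%. The median log2 ratio was 0.47 in Spic-/- and 0.36 in control, and it remained above 0 under upper-quartile scaling, at 0.20 and 0.16. Kdm1a, the flavin-dependent demethylase, and Kdm4b were at 0.88 each in Spic-/-, and at 0.73 and 0.78 in control. Kdm2b, a CxxC-domain demethylase that recruits a Polycomb complex to CpG islands, was the Kdm gene past 1.5-fold on the lower side as deposited, in control. It had 6.33 FPKM in Spic-/- with LPS against 9.85 FPKM without, and 4.56 FPKM in control with LPS against 8.36 FPKM without, with Rnf34 overlapping its exons on the other strand.

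Tet2, which oxidises methylcytosine and is known to restrain inflammatory cytokine genes in myeloid cells, gave nearly the same values in both genotypes. It had 20.5 FPKM in Spic-/- with LPS against 2.80 FPKM without, and 20.6 FPKM in control with LPS against 2.81 FPKM without. The linear ratios were 7.33-fold (6.49 to 8.29) and 7.32-fold (6.57 to 8.19). Tet3 was lower with LPS, with log2 ratios of -0.29 in Spic-/- and -0.43 in control, and Tet1 was at most 0.0139 FPKM in any library. The ratio of Tet2 to Tet3 was 4.16 in Spic-/- with LPS, 4.81 in control with LPS, 0.447 in Spic-/- without LPS and 0.459 in control without LPS. As with the Kdm6 genes, the paralog with the higher FPKM was a different one with LPS than without.

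**Figure D2:**
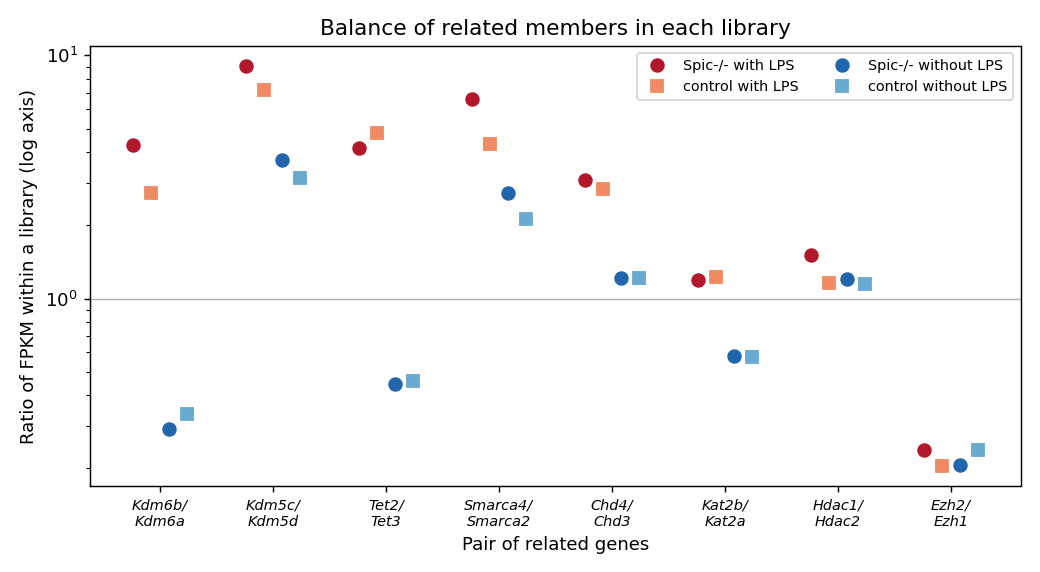
Ratio of the FPKM values of paralogous members in each of the 4 libraries (log axis, line at equal levels), 1 point per library. Kdm6b over Kdm6a, Tet2 over Tet3 and Kat2b over Kat2a lie above 1 in both libraries with LPS and below 1 in both without it; the pairs were chosen after the values were seen.

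Of the deacetylases, 6 of 9 in Spic-/- and 7 of 9 in control had an LPS ratio below 0, beside 48.3% and 48.4% of all genes. Hdac5, a class IIa deacetylase that shuttles between cytoplasm and nucleus, had 3.80 FPKM in Spic-/- with LPS against 24.3 FPKM without, and 3.47 FPKM in control with LPS against 21.2 FPKM without. The linear ratios were 0.156 (0.127 to 0.190) and 0.164 (0.136 to 0.197), and the log2 ratios of -2.40 and -2.31 were the lowest of all members in each genotype. All 3 class IIa genes tested (Hdac4, Hdac5 and Hdac7) and both class IIb genes (Hdac6 and Hdac10) were below 0 in both genotypes, with class medians of -0.72 and -0.67 in Spic-/- and -0.54 and -0.43 in control. Class I, most of whose members sit in nuclear corepressor complexes, had medians of 0.18 in Spic-/- and 0.15 in control, which were -0.09 in both under upper-quartile scaling.

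Within class I the genes were not alike. Hdac1, the most abundant deacetylase, had 44.2 FPKM in Spic-/- with LPS against 29.0 FPKM without, and 36.2 FPKM in control with LPS against 27.7 FPKM without. Hdac8 had 1.72 FPKM in Spic-/- with LPS against 4.18 FPKM without, and 2.67 FPKM in control with LPS against 4.22 FPKM without. Hdac1 was thus higher and Hdac8 lower with LPS in both genotypes. Over all 9 deacetylases tested the median was -0.40 in Spic-/- and -0.37 in control, and it was -0.61 and -0.58 under upper-quartile scaling. Among the 4 with a mean of at least 5 FPKM the deposited values gave a median above 0, at 0.18 and 0.15. With at least 5 FPKM in 1 library of the comparison it was below 0, at -0.31 for 6 genes in Spic-/- and -0.08 for 5 in control. The sign of the family median thus depended on the minimum chosen. Hdac7 shares exon bases with the opposite-strand Slc48a1, which was at 402 to 466 FPKM.

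The sirtuins, NAD-dependent deacylases, lay on both sides of 0. Sirt3, Sirt4 and Sirt5, which act in mitochondria, were all at least 1.5-fold lower with LPS in both genotypes. Sirt3, the main mitochondrial deacetylase, had 2.93 FPKM in Spic-/- with LPS against 5.89 FPKM without, and 2.37 FPKM in control with LPS against 5.36 FPKM without. Sirt4 had log2 ratios of -0.76 in Spic-/- and -0.79 in control. Sirt5, which removes succinyl and malonyl groups, had 0.322 FPKM in Spic-/- with LPS against 2.14 FPKM without, and 0.817 FPKM in control with LPS against 2.44 FPKM without.

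The values of Sirt5 rest on few fragments, an estimated 3 in Spic-/- with LPS and 10 in control with LPS, and its linear ratios were 0.150 (0.029 to 0.465) and 0.335 (0.147 to 0.659). Sirt3 overlaps Psmd13, a proteasome gene at 103 to 132 FPKM, on the other strand. Sirt1, the nuclear deacetylase, was higher with LPS, at 9.16 FPKM in Spic-/- against 4.87 FPKM without and at 7.08 FPKM in control against 4.36 FPKM without. Sirt2, mainly cytoplasmic, was the most abundant sirtuin, with 64.6 FPKM in Spic-/- with LPS against 45.4 FPKM without, and 59.6 FPKM in control with LPS against 51.6 FPKM without. Its exons overlap those of Nfkbib on the other strand, which was at 165 and 144 FPKM with LPS and at 21.7 and 21.4 FPKM without, so the Sirt2 value is uncertain; its ratio in control was 0.20 as deposited and -0.04 under upper-quartile scaling. The family median was -0.28 in Spic-/- and -0.20 in control, and -0.56 and -0.44 with that scaling. Among the 4 sirtuins with a mean of at least 5 FPKM the deposited values gave a median above 0, at 0.28 in Spic-/- and 0.01 in control. With at least 5 FPKM in 1 library of the comparison, which kept 5 sirtuins, it was 0.05 in Spic-/- and -0.19 in control.

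The Kat pattern matched 3 acetyltransferases, on both sides of 0. Kat2a, the acetyltransferase of the SAGA coactivator complex, had 6.77 FPKM in Spic-/- with LPS against 16.7 FPKM without, and 6.47 FPKM in control with LPS against 13.6 FPKM without. Kat2b, its paralog, had 8.08 FPKM in Spic-/- with LPS against 9.72 FPKM without, and 7.99 FPKM in control with LPS against 7.84 FPKM without. The log2 ratio of Kat2a was -1.19 in Spic-/- and -0.97 in control, whereas Kat2b was at -0.24 and 0.02 and the control value was -0.19 under upper-quartile scaling. Kat5, the catalytic subunit of the NuA4 complex, was higher with LPS, with 28.5 FPKM in Spic-/- with LPS against 16.9 FPKM without, and 25.1 FPKM in control with LPS against 16.1 FPKM without; Rnaseh2c overlaps it on the other strand at 20.2 to 28.1 FPKM.

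**Figure D3:**
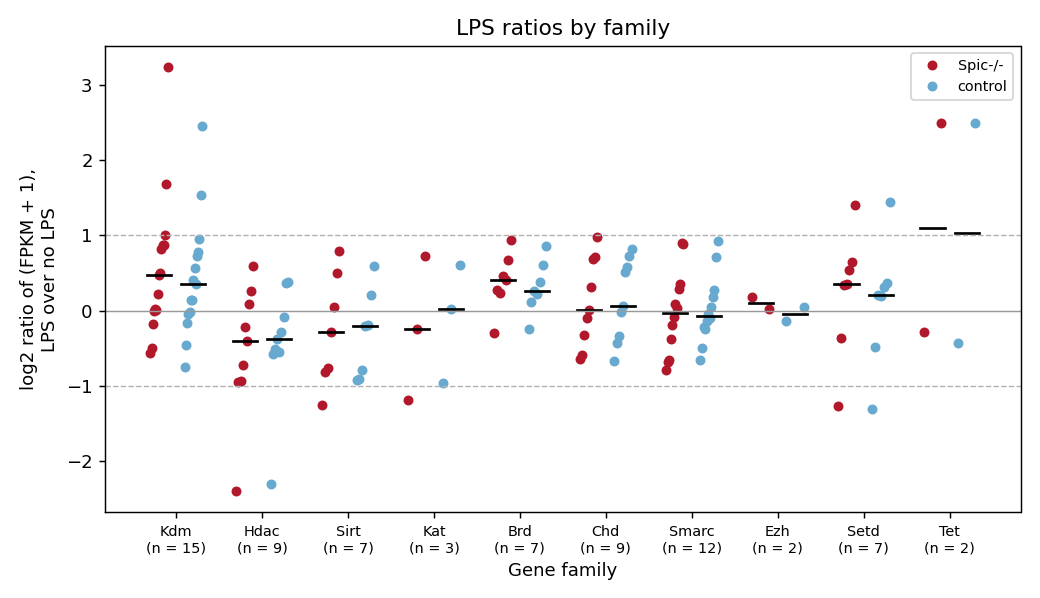
Log2 ratios of (FPKM + 1), with LPS over without, of the 73 members by family, Spic-/- left of control in each family, with a bar at each family's median. Kdm and Brd genes lie mostly above 0 and Hdac genes mostly below it in both genotypes. Above a mean of 5 FPKM the Hdac median was 0.18 in Spic-/- and 0.15 in control. With at least 5 FPKM in 1 library of the comparison it was -0.31 and -0.08. Under upper-quartile scaling 8 of 15 Kdm and 5 of 7 Brd genes were above 0 in each genotype.

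Of the bromodomain genes, 6 of 7 had an LPS ratio above 0 in each genotype, beside 51.6% of all genes in Spic-/- and 51.5% in control, or 5 of 7 under upper-quartile scaling. Brd2, a BET protein that binds acetylated histones, was the most abundant of all members, at 142 FPKM in Spic-/- with LPS against 73.3 FPKM without, and at 118 FPKM in control with LPS against 64.8 FPKM without. Its log2 ratios were 0.94 and 0.86, and H2-DMa overlaps it on the other strand at 8.23 to 18.1 FPKM. Brd3, another BET protein, was the member below 0, with log2 ratios of -0.29 in Spic-/- and -0.24 in control. The family median of 0.41 in Spic-/- and 0.26 in control was 0.14 and 0.04 under upper-quartile scaling.

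Of the CHD remodellers, Chd4, the ATPase of the NuRD complex, was highest. It had 62.7 FPKM in Spic-/- with LPS against 31.3 FPKM without, and 56.6 FPKM in control with LPS against 31.6 FPKM without. Chd3, the alternative NuRD ATPase, had log2 ratios of -0.33 in Spic-/- and -0.34 in control, and Chd1, a remodeller linked to transcribed genes, had 0.71 and 0.73. Chd9 was lower with LPS, with 2.29 FPKM in Spic-/- against 4.12 FPKM without and 2.81 FPKM in control against 5.03 FPKM without. The family was divided, with 5 of 9 above 0 in each genotype, beside 51.6% of all genes in Spic-/- and 51.5% in control. Under upper-quartile scaling 4 of 9 were above 0 in each. The family medians of 0.01 in Spic-/- and 0.07 in control turned to -0.25 and -0.16 under that scaling. As deposited, they were 0.69 and 0.58 among the 5 with a mean of at least 5 FPKM.

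SMARC subunits were divided as well, with medians of -0.03 in Spic-/- and -0.07 in control, or -0.29 and -0.28 under upper-quartile scaling and 0.06 and 0.0028 among the 10 with a mean of at least 5 FPKM. Smarce1, a core subunit of the BAF complex, had 50.1 FPKM in Spic-/- with LPS against 26.5 FPKM without, and 46.2 FPKM in control with LPS against 23.9 FPKM without. Smarca5, the ISWI ATPase, had log2 ratios of 0.90 in Spic-/- and 0.71 in control. Smarca2 and Smarca4 are the alternative ATPases of BAF, and their ratios had opposite signs. Smarca2 had 4.44 FPKM in Spic-/- with LPS against 8.37 FPKM without, and 6.02 FPKM in control with LPS against 10.04 FPKM without. Smarca4 had log2 ratios of 0.36 and 0.28, so that its ratio to Smarca2 was 6.63 in Spic-/- with LPS, 4.33 in control with LPS, 2.72 in Spic-/- without LPS and 2.12 in control without LPS.

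Among methyltransferases, Setd8, which monomethylates histone H4 and is now named Kmt5a, had 66.9 FPKM in Spic-/- with LPS against 24.7 FPKM without, and 65.5 FPKM in control with LPS against 23.4 FPKM without. Setd7, which methylates histone H3 and several non-histone proteins, had 2.24 FPKM in Spic-/- with LPS against 6.78 FPKM without, and 2.84 FPKM in control with LPS against 8.50 FPKM without. The log2 ratios were 1.40 and 1.44 for Setd8 and -1.26 and -1.31 for Setd7. The other 5 Setd genes lay between -0.37 and 0.65 in Spic-/- and between -0.48 and 0.37 in control. The family median was 0.36 in Spic-/- and 0.20 in control, and 0.10 and -0.03 under upper-quartile scaling, where the control median turned negative.

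Ezh2 and Ezh1, the catalytic subunits of Polycomb repressive complexes, stayed within 1.5-fold. Ezh2 had 4.27 FPKM in Spic-/- with LPS against 3.64 FPKM without, and 4.05 FPKM in control with LPS against 4.56 FPKM without. Ezh1 stayed between 17.6 and 19.9 FPKM.

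**Figure D4:**
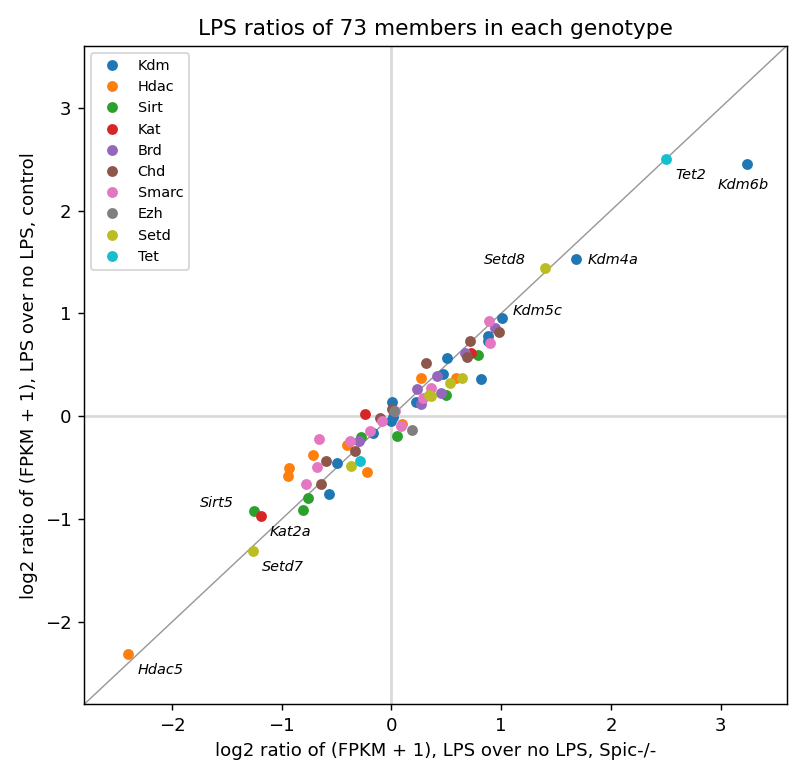
LPS ratio of each of the 73 members in Spic-/- (horizontal axis) and in control (vertical axis), both as log2 ratios of (FPKM + 1), coloured by family, with a line at equal ratios. Members run along the line from Hdac5 at -2.40 and -2.31 to Tet2 at 2.50 in both, and Kdm6b lies off it at 3.24 and 2.45.

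The comparisons of LPS in Spic-/- and in control share no library, and 67 of 73 members (91.8%) had the same sign in both, close to the 90.4% of all genes. Across members the correlation was 0.976 (Pearson's r) and 0.969 (Spearman's rho), beside 0.896 and 0.94 across all genes, as descriptions of these 4 libraries. The ratio was larger in size in Spic-/- for 49 of 73 members (67.1%), where this held for 59.5% of all genes. The knockout library with LPS also had the fewest fragments per FPKM, and the part of that in the larger ratios was not tested.

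The LPS ratio of the members varied with their level, as did that of all genes. Of the 18 members with a mean of 1 to 5 FPKM, 2 had a mean LPS ratio above 0, beside 870 of the 2801 genes of that range. The median of the 18 was -0.49, beside -0.28 for those genes. Of the 20 members at 20 FPKM or more, 17 were above 0, beside 2614 of 3742 genes. Their median was 0.42, beside 0.29 for those genes. Under upper-quartile scaling 1 of the 18 and 15 of the 20 were above 0. The 35 members in between had a median of 0.07, beside -0.03 for 3875 genes. Over the 73 members the mean LPS ratio and log2 mean FPKM had a Pearson's r of 0.464 and a Spearman's rho of 0.601, beside 0.326 and 0.359 over all genes; the points share the same 4 libraries.

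Genotype was accompanied by much smaller differences than LPS. With LPS, 0 of 73 members were 2-fold higher or lower in Spic-/- than in control, where 0.422% of all genes were higher and 0.403% lower, and without LPS the counts were again 0 and 0, beside 0.394% and 0.374%. At 1.5-fold with LPS, Kdm6b was higher and Smarcd3 lower, beside 2.5% and 2.31% of all genes; without LPS no member was past 1.5-fold, beside 1.64% and 1.77%. The median of the members was 0.09 with LPS (0.02 to 0.12), beside 0.06 for all genes, and 0.02 without LPS (-0.01 to 0.06), beside 0.05. Under upper-quartile scaling these medians were -0.05 and -0.09, so their sign depended on the scaling.

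Kdm6b had 23.4 FPKM in Spic-/- and 15.02 FPKM in control with LPS, a linear ratio of 1.56 (1.43 to 1.70), and 1.58 FPKM in Spic-/- and 1.93 FPKM in control without LPS, a ratio of 0.822 (0.652 to 1.03). The genotype difference of Kdm6b thus pointed in opposite directions with and without LPS, and the interval without LPS included 1. On the log2 scale the ratio with LPS was 0.61 as deposited and 0.46 under upper-quartile scaling, which is below 1.5-fold. Smarcd3, a BAF subunit known from cardiac muscle development, had 0.572 FPKM in Spic-/- and 1.74 FPKM in control with LPS, a linear ratio of 0.329 (0.121 to 0.770), and 1.48 FPKM in Spic-/- and 2.19 FPKM in control without LPS. It rests on an estimated 7 and 28 fragments with LPS and overlaps Chpf2, at 61.1 to 84.5 FPKM, on the other strand. Stromal and smooth muscle markers were also lower in the knockout, as given above, and their part in these ratios was not tested.

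Other members at the ends of the genotype comparison stayed within 1.5-fold on the scale of (FPKM + 1). The linear ratios of Sirt5 and Hdac8 with LPS were past it, at 0.394 (0.070 to 1.53) and 0.642 (0.378 to 1.07). Both rest on few fragments, an estimated 3 and 10 for Sirt5 and 24 and 49 for Hdac8, and both intervals included 1. With LPS the log2 ratios next to Kdm6b were 0.40 for Kdm2b, 0.33 for Sirt1, 0.28 for Hdac1 and 0.26 for Hdac3, the class I deacetylase of the NCoR corepressor complex. The lowest besides Smarcd3 were -0.46 for Sirt5, -0.44 for Hdac8, -0.43 for Hdac7 and -0.37 for Smarca2. Without LPS the highest were 0.28 for Kat2a and for Kat2b, 0.23 for Chd7, 0.21 for Kdm2b and 0.20 for Hdac10, and the lowest were -0.37 for Smarcd3, -0.29 for Setd7, -0.26 for Ezh2 and -0.24 for Smarca2 and for Chd9. Kdm2b was therefore among the 5 highest, and Smarcd3 and Smarca2 among the 5 lowest, both with and without LPS.

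**Figure D5:**
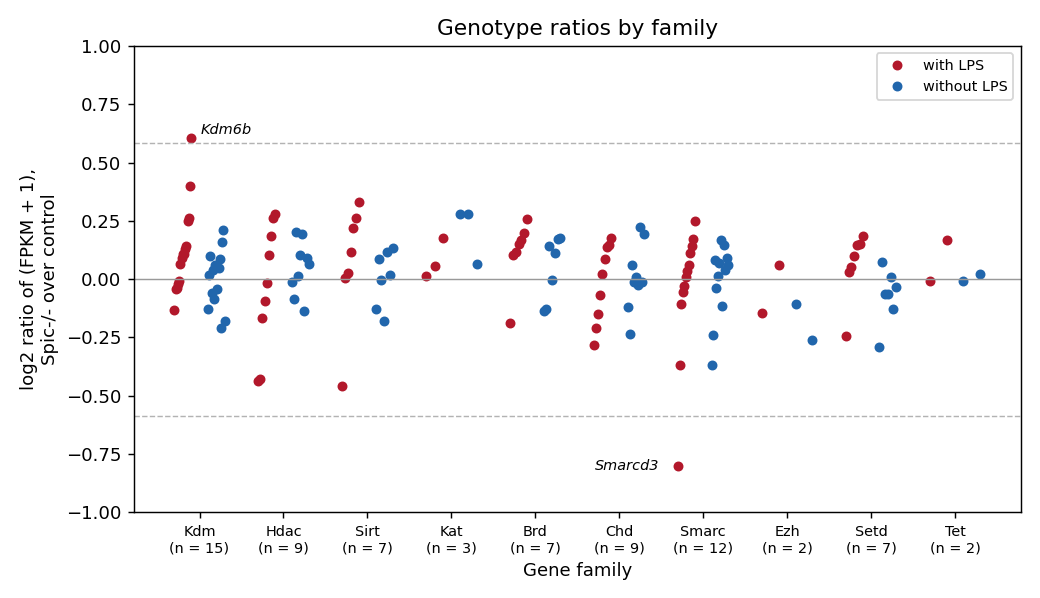
Log2 ratios of (FPKM + 1), Spic-/- over control, of the 73 members by family, with LPS left of without LPS in each family. With LPS all but Kdm6b (0.61) and Smarcd3 (-0.80) lie within 1.5-fold of 0, and without LPS all 73 do.

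No member's LPS ratio differed 2-fold between the genotypes, beside 0.346% of all genes in the higher and 0.538% in the lower direction. The difference was past 1.5-fold for 1 member, where 1.54% of all genes were past it in the higher and 2.13% in the lower direction. That member was Kdm6b, whose LPS ratio was 0.79 higher in Spic-/- than in control on the log2 scale, at the 99.36th percentile of all genes. Next in size were Kdm5b, a demethylase of the Kdm5c group, at 0.46, Smarcd3 at -0.44, Hdac8 at -0.42 and Hdac10 at -0.37. Kdm5b had 7.26 FPKM in Spic-/- with LPS against 3.69 FPKM without, and 5.96 FPKM in control with LPS against 4.42 FPKM without. Hdac10, which deacetylates polyamines, had 2.33 FPKM in Spic-/- with LPS against 5.41 FPKM without, and 2.73 FPKM in control with LPS against 4.57 FPKM without. With 1 library per group these differences carry no error from replicates.

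Chromatin genes outside the symbol patterns, from a list of 105 genes in the files of which 96 were tested, had median LPS ratios of 0.22 in Spic-/- and 0.14 in control, which were -0.04 and -0.09 under upper-quartile scaling. With LPS, 4 of the 96 were at least 2-fold higher and 10 lower in Spic-/-, and 4 were higher and 7 lower in control. These were 4.17% and 10.4% of the list in Spic-/- and 4.17% and 7.29% in control, beside 11.4% and 8.26% and 10.3% and 6.82% of all genes, so the lower counts were near background. Dnmt1, the maintenance DNA methyltransferase, had 3.97 FPKM in Spic-/- with LPS against 20.6 FPKM without, and 3.91 FPKM in control with LPS against 18.1 FPKM without. Setdb2, a histone H3 methyltransferase induced by interferon, had 16.9 FPKM in Spic-/- with LPS against 3.83 FPKM without, and 11.01 FPKM in control with LPS against 4.32 FPKM without. Its genotype ratio with LPS, 0.58 on the log2 scale, was close to that of Kdm6b. Suv420h2, which methylates histone H4, and Cbx8, a Polycomb reader, were lower with LPS, at -1.38 and -1.59 in Spic-/- and -1.77 and -1.63 in control.

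By genotype, 0 of the 96 were past 1.5-fold on the scale of (FPKM + 1). Beside this, 2.5% of all genes were higher and 2.31% lower with LPS, and 1.64% and 1.77% without. As linear ratios some of the 96 were past it with LPS, such as Padi4 with 2.04 FPKM in Spic-/- against 1.24 FPKM in control. The largest mean ratios over both states were those of Hat1, an acetyltransferase of new histones, at 0.37, Dnmt3a, a de novo DNA methyltransferase, at 0.37, Padi4, which citrullinates histones, at 0.34, and Jmjd6, a JmjC-domain protein, at 0.33. Family genes listed under older symbols numbered 8, and 6 of them were tested. The largest LPS ratio among these was that of Csrp2bp, now Kat14 and a subunit of the ATAC acetyltransferase complex, with 4.30 FPKM in Spic-/- with LPS against 13.2 FPKM without, and 4.79 FPKM in control with LPS against 12.99 FPKM without.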

How the data were processed

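RNA of 4 libraries, 1 per combination of genotype and LPS, was purified on columns and made into libraries with a stranded mRNA kit, per the labels' protocols. The authors deposited FPKM per gene. TopHat2 2.0.13, Bowtie2 2.2.3, SAMtools 0.1.19, Cuffnorm 2.2.1 and the mm10 build are named, per the submitters' processing notes; the gene annotation, the strand setting of counting and read counts are not given in the sources used here. A library took no further scaling in the values reported. Ratios between single libraries were taken as log2 of (FPKM + 1) (Python 3.11.15, pandas 2.3.3, scipy 1.17.1), for genes with a mean of at least 1 FPKM, and counted at 2-fold and 1.5-fold; no test was run, since no group had a replicate.

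Fragments per FPKM were estimated from low values. These are whole multiples of the value of 1 fragment for 2852 of 3175 genes tried (89.8%, tolerance 0.02). With 464 single-transcript genes, 1 FPKM equalled 7.99 fragments per kilobase in Spic-/- with LPS, 10.5 in control with LPS, 12.8 in Spic-/- without LPS and 15.5 in control without LPS. Linear ratios have exact (Clopper-Pearson) 95% intervals from the estimated fragments, which cover counting error only. The steps were tested on simulated data. Gene positions and promoters are from RefSeq GRCm38.p6, and exon overlaps are from GENCODE.

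Named were members at least 2-fold apart in any comparison, the 5 highest and 5 lowest per comparison, the 5 largest differences of response, in each family the highest level and the largest LPS ratio, the Ezh, Tet and sex-linked genes, and a few others given by family. One member's values are not reported here. The members and lists were chosen with earlier results of these data known. Alternatives were pseudocounts of 0.1 and 5, minimums of 5 FPKM in 1 library, a mean of 5 FPKM or none, and median-ratio or upper-quartile scaling.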

Additional observations from a re-analysis of the deposited data

How the results depend on the processing

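Over 17 results on the list, 108 of 131 alternative values stayed within 1.5 times for counts or within the 95% interval for medians, 22 moved further and 1 was reversed. A pseudocount of 0.1 FPKM gave 8 members lower with LPS in Spic-/-, 6 in control, 5 in both, and 2 lower in Spic-/- than in control with LPS. A pseudocount of 5 FPKM gave 1 lower in Spic-/-, 1 in control and 1 in both. Upper-quartile scaling gave 8, 5 and 5 lower, and medians of -0.18 and -0.16 for LPS in Spic-/- and in control; the median of Spic-/- over control was -0.051 with LPS, where the sign was reversed, and -0.087 without LPS. The 1.5-fold threshold gave 19 higher and 14 lower in Spic-/-, 15 and 9 in control, 15 and 8 in both, 1 higher and 1 lower by genotype with LPS, and 1 higher for the difference of responses. The minimums moved none of the 17 past these limits, but the balance of members around 0 did depend on them. With a mean of at least 5 FPKM, 41 members were above 0 and 14 below with LPS in Spic-/-, against 43 and 30 as reported. In control 38 were above 0 and 17 below, against 39 and 34. The median of all genes was 0.14 in Spic-/- and 0.13 in control with that minimum. Median-ratio scaling also moved none of the 17, but its factors were 1.0015 to 1.0061. The deposited values were thus already near that scale, and this alternative could hardly move a value. Its values are among the 108 that stayed. The 2-fold calls lost were those of Kat2a (-0.88), Kdm5c (0.84) and Sirt5 (-0.42) in Spic-/- and of Setd7 in Spic-/- (-0.70) and control (-0.78) with a pseudocount of 5 FPKM, and of Kdm5c in Spic-/- (0.74) with upper-quartile scaling; the cause was not tested beyond each setting's construction. Of 680 values of the 34 named members, 572 stayed within their limit and 108 moved past it. The limit was the counting interval for ratios between libraries, and a 1.5-fold shift for the difference of responses between genotypes. No paired analysis was possible because each group had 1 library and the labels carry no replicate numbers. Counting limits the low members most. For a 2 kb transcript, 1 fragment equalled 0.0694 FPKM in Spic-/- with LPS and 0.0358 FPKM in control without LPS.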
